A study of Arabidopsis thaliana with 6 samples.

Results

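A set of 29 probe sets, of 22746 on the array, was bright in all wild-type anthers and much dimmer in all anthers of the myb80 mutant of Arabidopsis thaliana. A probe set is the group of short probes that reports 1 transcript or several closely related ones. The members were chosen on the deposited intensities, a linear scale on which values under 16 were raised to 16. Each wild-type value had to be at least 100, and each mutant value at most 1/3 of the lowest wild-type value. These thresholds were passed by 35 probe sets (0.154% of all, and 0.438% of the 7998 with every wild-type value at or above 100). Of these, 6 were left out by name: AT5G64790, SBT4.13, AT5G42170, AT4G35670, CSLC12 and AT1G71680. The 6 had folds from 5.81 to 21.1 as defined below, and mutant replicate 4 was the brightest mutant array in each. The same thresholds with the groups exchanged were passed by 22 probe sets. Of the 29 members, 15 report 1 gene, 1 reports a pair of genes and 13 are unnamed here. Because the mutant and wild-type values chose the members, those values are a description, and no p-value of a member is given for them.

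The study compared 3 arrays of anthers from myb80 mutant plants (replicates 1, 4 and 5-2) with 3 of anthers from wild-type plants (replicates 2, 5 and 6). Neither group received a treatment in the labels, and the sources used here do not give the allele, the line or the plant age. The labels give about 1000 anthers of stages 5 to 8 per biological replicate, so each array pools many flowers. They do not say whether the replicates were grown apart, so p-values measure only the spread between these samples.

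MYB80 encodes a MYB transcription factor that acts in the tapetum, the innermost anther layer, which feeds the microspores and later breaks down. Plants that lack it are male sterile. After meiosis the microspores and the tapetum switch on genes for the pollen wall, for flavonoid and lipid coatings, for pollen tube growth and for the drying of mature pollen. In bulk anthers, fewer cells of a type and less RNA per cell cannot be told apart.

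Every array carried anther transcripts: AMS, a tapetum regulator, read from 774 to 2992, and ATA27, a tapetal glucosidase gene, from 3234 to 8144. Median intensity ran from 64.8 to 81.1 on the mutant arrays and from 69.5 to 73.5 on the wild-type arrays. Actin control signal was higher at the 3' than at the 5' end, which is a measure of RNA integrity, by a factor that ran from 17.1 to 29.6 in the mutant and from 13.3 to 24.7 in wild type, so the groups overlapped. By this control, signal leaned strongly to the 3' end on every array, and the overlap does not mean that the RNA was intact. The highest of these ratios was that of mutant replicate 4, and its part in the values of that array was not tested. The same ratio for GAPDH, another control, ran from 2.39 to 4.08 in the mutant, with replicate 4 at 3.64, and from 3.91 to 4.57 in wild type. The level of MYB80 was not analysed here, so the labels were not checked on the mutated gene.

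The word lost describes only part of the members. On mutant replicate 1, 15 of 29 lay at or under 16, against 6 on replicate 5-2 and 1 on replicate 4, and 14 members lay above 16 on every mutant array. Over all 22746 probe sets, 19.9% lay there on replicate 1, 23.6% on replicate 5-2 and 18.1% on replicate 4. Over the 7998 probe sets with wild type at or above 100 these shares were 0.963%, 0.725% and 0.0750%. A single member, the unnamed probe set 258451_at, was under the floor on all 3. At the other end, 3 members kept at least 100 on every mutant array. Geometric means of the members ran from 125 to 3381 in wild type, with a median of 576, and from 16 to 427 in the mutant, with a median of 42.9. In wild type the members lay at a median percentile of 92.6 of all probe sets by intensity, and in the mutant at 37.2. Together they made up from 0.500% to 0.663% of the summed signal on the wild-type arrays and from 0.0430% to 0.126% on the mutant arrays. The geometric mean in wild type over that in the mutant, called the fold below, had a median of 9.38 over the 29 members and ran from 4.84 to 31.7. Over the 7998 probe sets with wild type at or above 100 the median fold was 0.980. Where a mutant array stood at 16, the fold understates the difference.

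**Figure D1:**
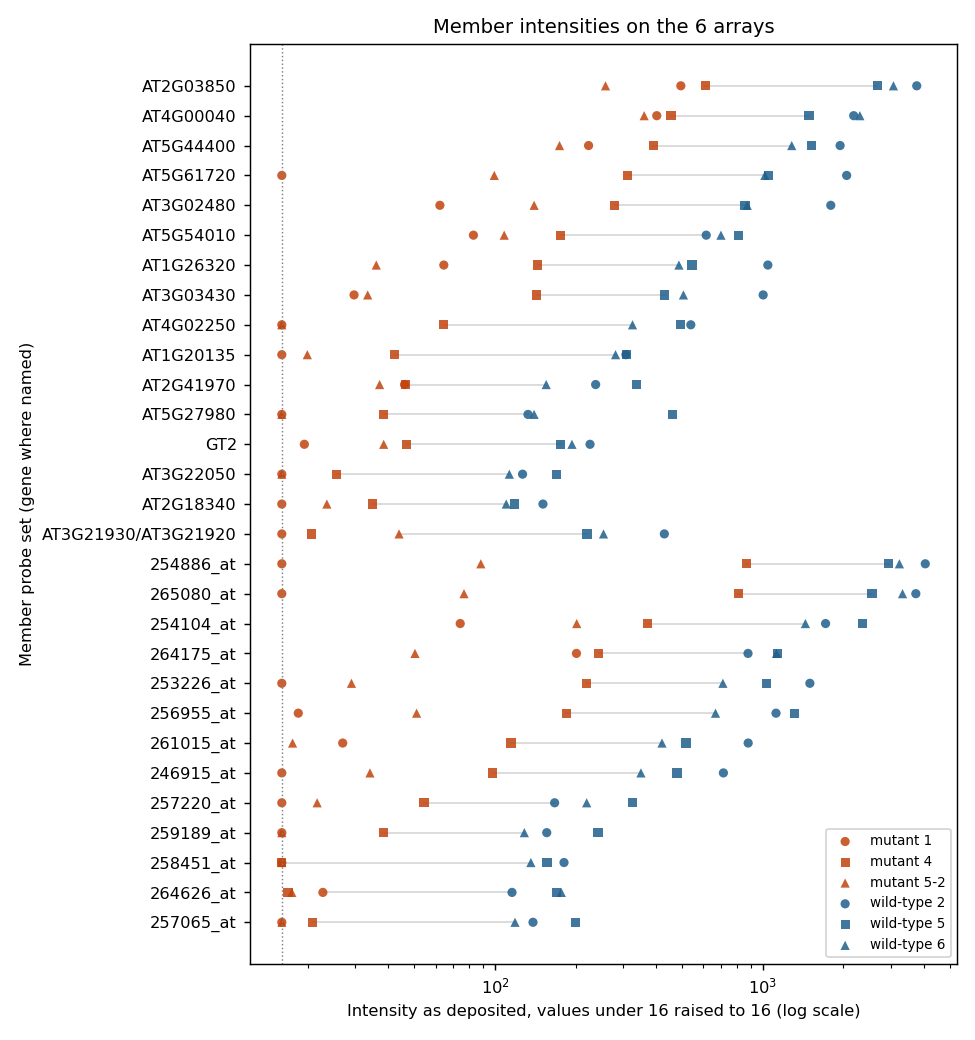
Deposited intensity (log scale, values under 16 raised to 16) of each of the 29 members on the 3 mutant arrays (orange) and the 3 wild-type arrays (blue), with a grey line over the gap between the groups. The dotted line marks 16, where 15 members lay on mutant replicate 1, and mutant replicate 4 (orange square) was usually the closest mutant array to wild type.

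**Figure D2:**
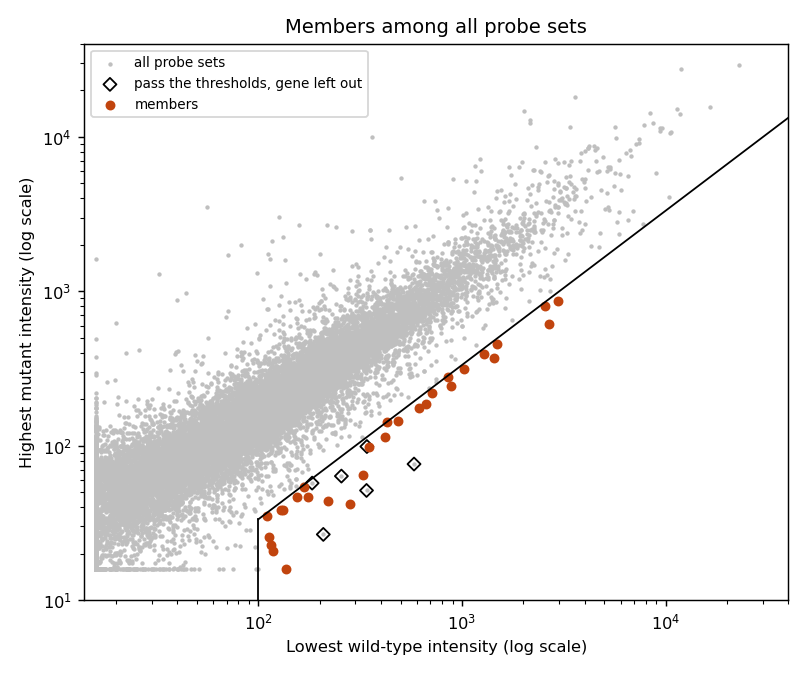
Lowest wild-type intensity against highest mutant intensity (both log scale) for all 22746 probe sets, with the members in orange and the 6 genes left out by name as diamonds. The black lines are the thresholds of 100 and 1/3, and most members lie close under the sloping line.

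AT2G03850, AT3G02480, AT2G18340 and AT5G27980 encode proteins of the late embryogenesis abundant (LEA) and seed maturation families, which accumulate in tissues that dry out, such as seeds and pollen. The share of such genes among all probe sets was not counted. AT2G03850, of the LEA family, was the brightest named member. It read 494, 611 and 259 on mutant replicates 1, 4 and 5-2 and 3755, 2675 and 3074 on wild-type replicates 2, 5 and 6. It thus stayed well above the floor in the mutant while being 7.34-fold brighter in wild type. AT3G02480, also of the LEA family, read 62.3, 279.9 and 140.0 in the mutant and 1793, 858 and 875 in wild type (8.20-fold). Wild-type replicate 2 was about as far above the other wild-type arrays as mutant replicate 4 was above replicate 5-2. AT2G18340, which encodes a LEA domain protein, was dim throughout, at 16, 34.8 and 23.6 in the mutant and 151, 118 and 110.2 in wild type (5.31-fold). AT5G27980, a seed maturation protein gene, read 16, 38.3 and 16 in the mutant and 133, 461 and 140.0 in wild type (9.56-fold). Its wild-type arrays differed 3.47-fold among themselves, the widest spread of any member, with replicate 5 far above the other two.

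Another 4 members encode enzymes of secondary or redox metabolism. AT4G00040, of the chalcone and stilbene synthase family of polyketide synthases, read 402, 454 and 361 in the mutant and 2184, 1487 and 2303 in wild type. Its fold of 4.84 was the smallest of all members, and its mutant arrays lay close together, with a log2 SD of 0.17. AT5G54010 (UGT79B6), a UDP-glycosyltransferase that adds a sugar to pollen flavonols, read 83.1, 176 and 108 in the mutant and 615, 813 and 698 in wild type (6.04-fold). Its 3 wild-type arrays lay within 1.32-fold of each other. AT5G44400, of the berberine bridge enzyme family of flavin-linked oxidases, read 224, 390.5 and 174 in the mutant and 1943, 1522 and 1282 in wild type (6.29-fold). AT1G26320, of the zinc-binding dehydrogenase family, read 64.4, 144 and 36.0 in the mutant and 1044, 544 and 486 in wild type (9.38-fold). The first 3 of these genes kept a clear signal on every mutant array, while AT1G26320 fell to 36.0 on replicate 5-2.

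Signalling proteins of pollen were represented by AT2G41970 and AT3G03430. AT2G41970, known in the literature as MARIS, encodes a receptor-like cytoplasmic kinase that keeps growing pollen tubes intact, downstream of the ANXUR and BUPS receptor kinases. It read 46.0, 46.5 and 37.1 in the mutant and 238, 338 and 155 in wild type (5.40-fold). Its mutant arrays were nearly level, with a log2 SD of 0.18. AT3G03430, which encodes a small calcium-binding protein with EF hands, read 29.8, 143 and 33.5 in the mutant and 1003, 430.0 and 505 in wild type (11.5-fold). In this gene mutant replicate 4 stood far above the other mutant arrays, and wild-type replicate 2 above the other wild-type arrays.

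Secreted proteins and wall-related inhibitors formed a further group. AT4G02250, of the family of invertase and pectin methylesterase inhibitors, had the largest fold of the named members, with 16, 64.3 and 16 in the mutant and 538, 494 and 326 in wild type (17.4-fold). AT3G22050, which encodes a cysteine-rich secretory protein with the domain found in cysteine-rich receptor kinases, read 16, 25.5 and 16 in the mutant and 127, 170.3 and 113 in wild type (7.20-fold). A probe set shared by AT3G21930 and AT3G21920, of the same family, read 16, 20.6 and 43.8 in the mutant and 429, 221 and 254 in wild type (11.8-fold), and cannot be assigned to either gene. It was the only member whose highest mutant array was replicate 5-2.

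The remaining named members were GT2, AT5G61720 and AT1G20135. GT2, a trihelix DNA-binding transcription factor, read 19.4, 46.8 and 38.4 in the mutant and 226, 176 and 194 in wild type (6.05-fold), with little spread in wild type. AT5G61720, a protein of unknown function, read 16, 313 and 99.4 in the mutant and 2056, 1047 and 1018 in wild type (16.4-fold). It spanned the widest range among the mutant arrays of any named member, with a log2 SD of 2.16. AT1G20135 read 16, 42.1 and 19.9 in the mutant and 308, 309 and 282 in wild type (12.6-fold), and its wild-type arrays were the closest to each other of all members, with a log2 SD of 0.075.

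The 13 unnamed members included the brightest of all. Probe set 254886_at read 16, 867 and 88.5 in the mutant and 4041, 2955 and 3235 in wild type (31.6-fold), and 265080_at read 16, 809 and 76.6 against 3726, 2558 and 3324 (31.7-fold). Both followed the same order over the 6 arrays, with mutant replicate 4 at about the same share of wild type. Probe set 253226_at read 16, 220.3 and 29.1 in the mutant and 1499, 1035 and 709 in wild type (22.1-fold), and 256955_at read 18.4, 185 and 51.0 against 1120.0, 1309 and 666 (17.8-fold). Probe set 261015_at read 27.0, 115 and 17.6 against 882, 516 and 420.3 (15.2-fold), and 254104_at read 74.2, 371 and 202 against 1715, 2351 and 1442 (10.2-fold). In all 6 of these probe sets mutant replicate 4 stood above both other mutant arrays, although the rest of their order varied. Probe set 264626_at departed from this, with 22.8, 16.9 and 17.4 in the mutant, all near the floor, and 116, 169.9 and 177 in wild type (8.04-fold). At the dim end, 258451_at read 181, 156 and 136 in wild type and was under 16 on all mutant arrays, so it was at least 9.80-fold lower in the mutant. Over the 13, folds ran from 7.70 to 31.7 with a median of 10.2. Over the 15 members with 1 gene they ran from 4.84 to 17.4 with a median of 7.34.

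Among members with 1 gene, those just inside the mutant threshold were AT3G03430, AT3G02480 and AT2G18340, whose lowest wild-type value was 3.01, 3.07 and 3.17 times the highest mutant value. Just outside it lay AT5G25550, AT3G28840 and AT2G33690, at 2.96, 2.85 and 2.71 times. AT3G28840 was far brighter than any member, at 11319, 10512 and 7765 on the wild-type arrays and 52.8, 2728 and 409 on the mutant arrays in the same order as above. Just inside the wild-type minimum lay AT2G18340, AT3G22050 and AT5G27980, with lowest wild-type values of 110.2, 113 and 133. Just outside it lay AT2G38500, AT2G45610 and AT3G51070, with lowest wild-type values of 96.0, 91.2 and 86.8.

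The thresholds do not say which array of a group should be brightest, and the members shared an order there. Mutant replicate 4 was the brightest mutant array in 26 of 29 members (89.7%), against 32.2% of the 7998 probe sets with wild type at or above 100. The exceptions were the probe set of AT3G21930 and AT3G21920, 264626_at and 258451_at, which was at the floor on all 3. After scaling the arrays to a common median these values were 24 of 29 (82.8%) and 18.1%. As deposited, the 6 genes left out by name were also brightest on replicate 4, as were AT5G25550, AT3G28840 and AT2G33690 just outside the mutant threshold. Just outside the wild-type minimum, AT2G38500 was too, but AT2G45610 was brightest on replicate 1 and AT3G51070 on replicate 5-2. Of the pollen lists, ACT12, XIC and CHX19 were brightest on replicate 4, but BUPS1, BUPS2, AGL65 and AGL94 on replicate 1. The order was thus not particular to the members. Replicate 4 held at least 100, with both other mutant arrays under 100, in 8 members. In wild type, replicate 2 was brightest in 16 members, replicate 5 in 11 and replicate 6 in 2, against 34.0%, 31.8% and 34.2% of the 7998. AT1G26320, AT3G03430, AT3G02480 and AT5G61720 were each about equal on wild-type replicates 5 and 6 and higher on replicate 2. AT5G27980, AT2G41970, AT3G22050 and AT5G54010 were instead brightest on replicate 5. The SD of log2 intensity had a median of 0.76 among the mutant arrays and 0.39 among the wild-type arrays for the members, against 0.28 and 0.25 for the 7998. The thresholds hold the members' mutant values low. Their medians on the mutant arrays ran from 16 to 115, against 257 to 269 for the 7998. Spread was not compared at like intensity, so the larger SD is not read as a trait of the members. The members are read from the same 6 RNA samples, so this shared order is a description of those samples, and its cause was not tested.

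**Figure D3:**
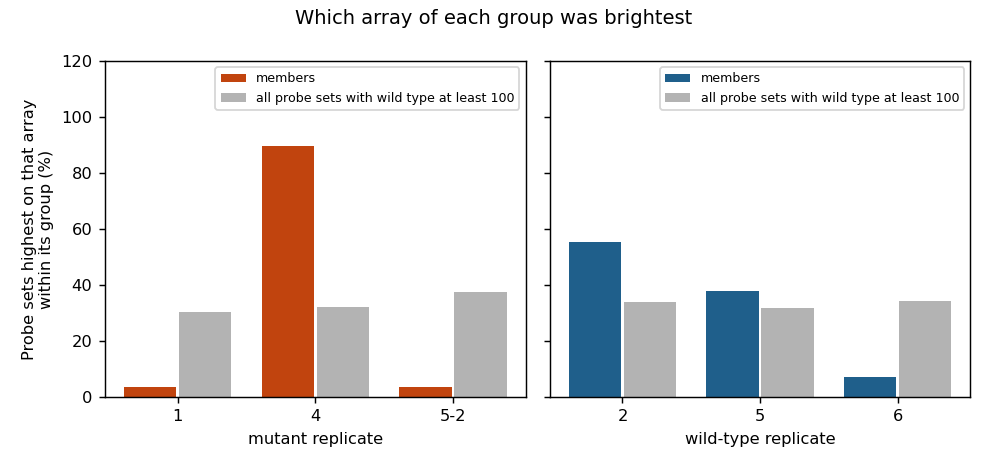
Percent of probe sets for which each array was the brightest of its group, for the 29 members (coloured bars) and for the 7998 probe sets with every wild-type value at or above 100 (grey bars). Mutant replicate 4 was brightest for 89.7% of the members and 32.2% of the larger set. It was also brightest for the 6 genes left out by name, which are not drawn.

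For the background across the array, limma was fitted to log2 intensities after scaling to a common median, and the 1 in 3 probe sets with the lowest means were dropped. With Benjamini-Hochberg adjustment it called 243 of 15164 probe sets lower in the mutant (1.6%) and 68 higher (0.448%) at adjusted p under 0.05. All 29 members were bright enough in wild type to pass the filter, and 27 of them were among the 243, a count that the choice of members fixes and that is no support for it. The exceptions were 254886_at and 265080_at, which had a wide spread among the mutant arrays. With no filter, limma called 2 of 22746 lower (0.00879%), 1 of them a member, while 1275 lay lower and 1038 higher at an unadjusted p under 0.05.

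The genes next to the members on the chromosome were not used by the thresholds. In the order of protein-coding genes, the 5 genes on each side of the 15 members with 1 gene gave 71 measured probe sets, of which 38 entered the filtered fit. Of these 38, 1 was called lower and 0 higher (2.63% lower, against 1.51% lower and 0.403% higher among all tested probe sets with 1 gene). At an unadjusted limma p under 0.05, 3 of the 38 lay lower and 2 higher. The unfiltered fit had 1275 of 22746 probe sets lower and 1038 higher at that threshold, and the share in the filtered fit was not counted. The 71 neighbours had a median log2 difference, mutant minus wild type, of 0.01, and 31 were below 0. Among the 18 measured nearest neighbours, log2 differences ran from -0.82 to 0.73.

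The neighbour that was called was AT1G20150, a subtilisin-like protease gene 2 places from AT1G20135. It read 353, 99.9 and 31.6 on the mutant arrays, in the order used above, and 748, 1194 and 1291 on the wild-type arrays (log2 difference -3.37 ± 0.68 as the SE with 3 arrays a group, limma adjusted p = 0.0406). Its brightest mutant array was replicate 1, not replicate 4. All its mutant arrays lay below all its wild-type arrays, as in 8.39% of the 15164 probe sets of the filtered fit. AT1G76880, a trihelix gene next to GT2, differed by 0.26 ± 0.26 on the log2 scale (limma adjusted p = 0.784). Beside AT5G44400, the berberine bridge family genes AT5G44380 and AT5G44410 differed by 1.46 ± 0.35 and -0.82 ± 0.30 (limma adjusted p = 0.0789 and 0.287). AT5G44380 thus read higher on every mutant array, from 95.2 to 111, than on any wild-type array, from 27.0 to 61.4. This was the direction opposite to its neighbour, though AT5G44380 did not pass. The share of all probe sets that read higher on every mutant array was not counted.

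**Figure D4:**
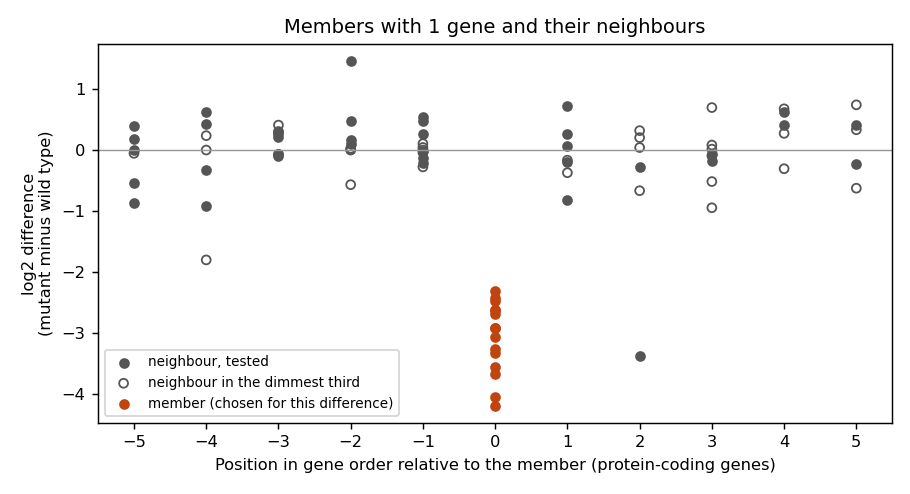
Log2 difference in intensity, mutant minus wild type, of the 15 members with 1 gene (position 0, chosen for this difference) and of the 71 measured probe sets of the 5 genes on each side, by position in gene order. Open circles are dim neighbours outside the filtered fit, and 1 neighbour, AT1G20150 at position 2, lies among the members' values at -3.37.

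The cysteine-rich secretory protein genes lie in a run on the chromosome, from which more genes were read after the values of the members were known, so they are given without a test. AT3G21970 read 50.8, 181 and 36.3 in the mutant and 796, 390.4 and 419.8 in wild type. A probe set shared by AT3G22000 and AT4G20680 read 16, 35.3 and 16 in the mutant and 205, 81.9 and 83.7 in wild type. In both, wild-type replicate 2 stood far above the other wild-type arrays and mutant replicate 4 above the other mutant arrays. In both, every mutant array was also below every wild-type array, as in 8.39% of the 15164 probe sets of the filtered fit. AT3G21960 read 41.1, 135 and 39.6 against 286, 145 and 92.5, so its groups overlapped. AT3G22020 was near the floor in the mutant and read 126, 51.9 and 31.1 in wild type. AT3G22040 and AT3G22060 read no more than 43.7 on any array, so little could be read from them in either direction.

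Lists of related genes were read to place the members. The 4 pollen lists (wall and tube growth, actin and myosin, transport, and regulators and germline) named 68 genes, of which 17 had a named probe set. None of the 17 is a member, and 8 of them are genes that the choice of members leaves out by name. All 17 had negative log2 differences, with a median of -1.84 against 0.04 over the 15164 probe sets of the filtered fit. They include bZIP34, which stood at 16 on every array but wild-type replicate 5. In the filtered fit 15 were tested and 7 called lower, against the background of 1.6%. Of the 7, 6 (ANX2, ACT12, XIC, CHX19, VEX1 and AGL104) are genes that the choice of members leaves out by name, and BUPS2 is not. Earlier results of these data already showed the fall of pollen genes, so neither the common direction nor the count of calls is independent support for it. The count ran from 0 to 10 when single arrays were left out, and was 0 without mutant replicate 5-2, without wild-type replicate 2 and without wild-type replicate 5.

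The receptor kinases that act with AT2G41970 (MARIS) at the pollen tube tip had low intensities. BUPS2, a receptor kinase of tube integrity, read 25.8, 19.2 and 16 in the mutant and 61.5, 81.8 and 54.3 in wild type (log2 difference -1.79 ± 0.29 as the SE with 3 arrays a group, limma adjusted p = 0.0221). BUPS1, its close relative, read 53.0, 45.0 and 16 against 77.3, 216 and 77.3 (-1.78 ± 0.52, limma adjusted p = 0.143). ANX1 was at the floor on all mutant arrays and read 71.0, 63.9 and 39.9 in wild type, and it entered only the unfiltered fit (limma adjusted p = 0.157). ANX2 was also at the floor on all mutant arrays and read 64.2, 126 and 65.7 in wild type (-2.36 ± 0.31, limma adjusted p = 0.0109). In all 4 genes every mutant array was below every wild-type array. For the 3 in the filtered fit, BUPS1, BUPS2 and ANX2, the background of this was 8.39% of its 15164 probe sets. In these 4 genes wild-type replicate 5 was the highest or, for ANX1, the second. AT2G41970 was also brightest on wild-type replicate 5.

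Of the pollen lists, AGL66 and ACT11 had log2 differences closer to 0 than the BUPS and ANX genes. AGL30 (-0.64), bZIP34 (-0.29) and AGL94 (-0.26) lay closer to 0 still. The groups overlapped in AGL30, AGL94 and AGL65 (-1.32), and none of these was called (limma adjusted p = 0.532, 0.804 and 0.329). Others, such as CHX19 (-2.74) and ACT12 (-2.70), lay further from 0. AGL66, a MADS-box factor of pollen maturation, read 86.2, 140.4 and 65.8 in the mutant and 227, 148 and 147 in wild type (log2 difference -0.91 ± 0.32, limma adjusted p = 0.252). ACT11, a reproductive actin gene, read 115, 193 and 88.9 against 179.9, 268 and 176, so its groups overlapped (-0.73 ± 0.31, limma adjusted p = 0.383). Neither AGL66 nor ACT11 passed, and whether they differ from the members was not tested.

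Few markers of other anther and flower cells could be read. No gene of the sporopollenin list (9 genes) or the endothecium list (4 genes) had a named probe set. Of the other 5 lists 16 genes were measured and 11 entered the filtered fit, where limma called 0 of them, against a background of 1.6% lower and 0.448% higher. At an unadjusted limma p under 0.05, 4 of the 11 lay higher and 0 lower. At that threshold the unfiltered fit had 1038 of 22746 probe sets higher and 1275 lower. The share in the filtered fit was not counted, so no tendency of these lists is read from the 4. Of 13 tapetum regulators 7 were measured, with a median log2 difference of 0.63. On the deposited intensities, every mutant array was above every wild-type array in 3 of them, EMS1, AMS and ROXY2. In the other 4 the groups overlapped or met at the floor. The share of all probe sets with every mutant array above was not counted, so the 3 of 7 cannot be set against a background. The summed intensity of the 7 regulators ran from 2389 to 4891 on the mutant arrays and from 1625 to 1757 on the wild-type arrays. A large part came from AMS, which was not called. It gave 2992 of the 4891 on mutant replicate 5-2, 1307 of the 2389 on mutant replicate 4 and 809 of the 1625 on wild-type replicate 2. AMS read 2129.5, 1307 and 2992 on the mutant arrays and 809, 774 and 871 on the wild-type arrays (1.28 ± 0.38, limma adjusted p = 0.148). Mutant replicate 4 was thus the mutant array closest to wild type for AMS as well as for most members. Of 10 meiosis genes 4 were measured, 3 of them too dim for the filtered fit, with a summed intensity from 105 to 137 in the mutant and from 109.7 to 119 in wild type. SPO11-2, which helps to make the meiotic DNA breaks, differed by -0.95 ± 0.37 (limma adjusted p = 0.504 without the filter). MND1, of meiotic recombination, differed by 0.65 ± 0.28 (limma adjusted p = 0.386 with the filter). Their log2 differences had opposite signs, so the list showed no common direction. Sepal, petal and carpel markers (2 of 7 measured) had a median of 0.32, photosynthesis genes (2 of 8) one of 0.72, and the only measured pollen coat gene of 10, ATA27, differed by -0.69 ± 0.33 (limma adjusted p = 0.463). ATA27 read from 3234 to 5774 on the mutant arrays and from 5968 to 8144 on the wild-type arrays. Every mutant array was thus below every wild-type array, as in 8.39% of the 15164 probe sets of the filtered fit. SPO11-2 also read lower on every mutant array, while MND1 and LHCB4.1 read higher on every one. The summed intensity of the 17 pollen list genes ran from 792 to 3216 in the mutant and from 5883 to 8913 in wild type, highest in the mutant on replicate 4. A large part came from 1 gene, AT5G45880, which is left out by name and was not called (limma adjusted p = 0.105). It gave 1589.5 of the 3216 on mutant replicate 4 and 4764 of the 8913 on wild-type replicate 2. The part of the mix of cells or of the stage of the anthers in the members' values was not tested.

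**Figure D5:**
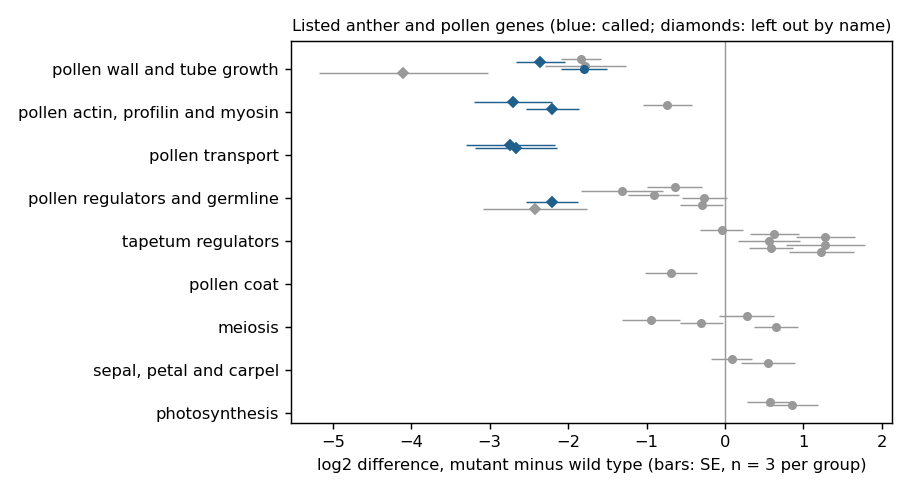
Log2 difference in intensity, mutant minus wild type, with its SE (n = 3 arrays per group), for each measured gene of the lists. Blue marks the 7 genes called lower by limma, diamonds mark genes that the choice of members leaves out by name, and all 17 entries of the 4 pollen lists lie below 0.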

How the data were processed

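Biotin-labelled RNA of dissected anthers was hybridised to Affymetrix-type arrays. The values are intensities per probe set, on a linear scale judged from the values themselves. The table the authors deposited holds 1 intensity per probe set and array. The sources used here do not give the software, the background correction, the normalization or scan batches. The 64 control probe sets were left out.

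Members were found on the deposited intensities raised to 16. For the fit, arrays were scaled to a common median (medians differed by up to 0.323 on the log2 scale), raised to 16 and log2 transformed. limma 3.58.1 in R 4.3.3 (lmFit, eBayes, no covariate, two-sided, Benjamini-Hochberg) was then run without the dimmest 1 in 3 probe sets. Groups come from the sample titles, and no pair of arrays shared more than 1 identical value. The number of arrays limits the precision.

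Probe sets were named through a platform annotation, updated to NCBI RefSeq's TAIR10.1 gene table: 13513 had 1 gene, 503 several and 8730 none, and 13484 of those with 1 gene matched. That table gave gene order only. No coordinates are printed, since the files name no build. Where a gene of a list had several probe sets, the brightest was used.

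The members and lists were chosen with earlier results of these data known. All named members are described. Genes just inside and outside the thresholds are the nearest 3 with 1 gene. List genes are up to 4 called, or the smallest unadjusted p. ANX1, BUPS1, ACT11, AGL30, AGL65, AGL66, AGL94, AT5G45880, bZIP34, EMS1 and ROXY2 were named after their values were seen. So were the named neighbours and the run of secretory protein genes. The planned grouping by product keywords was replaced by families known from the literature. Promoter motifs and protein features were not analysed here. Alternatives covered scaling, floor, filter, thresholds, variance model and leaving out each array.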

Additional observations from a re-analysis of the deposited data

How the results depend on the processing

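The number of members was 29 and stayed within 1.5 times under scaling to a common median (35), quantile normalization (33), a wild-type minimum of 50 (40) and no floor (29). Scaling, the lower minimum and no floor kept all 29, and quantile normalization kept 25. A minimum of 200 gave 19, a mutant share of 1/2 gave 103 and one of 1/4 gave 8 (AT4G02250, AT1G20135, AT2G03850, AT3G22050, the probe set of AT3G21930 and AT3G21920, 258451_at, 257065_at and 264626_at). Leaving out single arrays, which asks less of a probe set, gave from 29 to 197, with 197 without mutant replicate 4, 58 without mutant replicate 1, 56 without wild-type replicate 6 and 46 without wild-type replicate 2. The median fold was 9.38, from 8.27 to 11.8 without single arrays and 13.2 without the floor.

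Counts of calls depended strongly on the settings. Lower and higher calls (243 and 68) were 2 and 1 with no filter, 409 and 118 with a mean-variance trend, 47 and 23 with no floor and 408 and 133 at adjusted p under 0.1. Lower calls were 87 on intensities as deposited and 133 after quantile normalization, and the higher calls were then 54 and 61. The share of higher calls thus moved from 21.9% to 38.3% and 31.4%. Leaving out single arrays gave from 21 to 421 lower and from 10 to 113 higher. The highest counts were without mutant replicate 4 and the lowest were without wild-type replicate 5 (lower) and mutant replicate 5-2 (higher). The 7 pollen list calls became 0 with no filter, 4 as deposited, 3 with no floor and from 0 to 10 without single arrays. The cause was not tested.

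No paired analysis was possible because the groups share at most 1 replicate number: the labels do not say whether mutant 5-2 belongs with wild-type 5, and it was taken as a replicate of its own. Low signal limits the members at the floor, where intensities have no order.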
